A study of Mus musculus with 27 samples.

Results

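The clustered histone genes are the replication-dependent histone genes of the mouse, which lie side by side in the Hist1, Hist2, Hist3 and Hist4 loci. They were chosen by name alone: every row of the 5 deposited RNA-Seq tables whose gene symbol, or first symbol of a combined row, begins with Hist1h, Hist2h, Hist3h or Hist4h. This gave 63 rows, of which 1 combined row holds 2 genes (Hist1h2bq and Hist1h2br), out of 20602 genes listed in any table. By their names, 6 of these rows belong to the linker histone H1, 16 to H2A, 18 to H2B (with Hist3h2bb-ps, a pseudogene), 10 to H3 and 13 to H4. The rows numbered 63 in the Cbfa2t3 knockdown (KD) table, 62 in the Irf2bp2 KD table, 63 in the Kdm1a KD table, 61 in the Gfi1b KD table and 60 in the MEL differentiation table, and 60 were present in all 5.

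The libraries came from MEL cells, a mouse erythroleukaemia line that grows as erythroid progenitors and can be induced to differentiate. Proteins that the study examined as partners of the ETO2 repressor complex, and ETO2 itself, were targeted in these cells: ETO2 (gene Cbfa2t3) with shRNA sh2 or sh3, IRF2BP2 with shRNA sh1, LSD1 (gene Kdm1a) by shRNA and GFI1B by siRNA, against non-targeting control libraries labelled WT. There were 2 Eto2 WT, 2 Eto2 KD-sh2 and 2 Eto2 KD-sh3 libraries, 2 Irf2bp2 WT and 2 Irf2bp2 KD-sh1, 1 Lsd1 WT and 2 Lsd1 KD, and 2 Gfi1b WT and 2 Gfi1b KD. A further 2 libraries of non-induced and 2 of induced MEL cells gave differentiation itself, and a list of ETO2 and IRF2BP2 binding sites gave chromatin occupancy. All groups are 1 transformed cell line without added alleles, the labels do not say which of 2 siRNAs each Gfi1b KD library received, and they do not say that replicates were separate cultures, so p-values measure only the spread between these samples. The shRNA libraries held 44519414 to 57684583 counts and the Gfi1b and differentiation libraries 9929311 to 19623105, so that 3 counts correspond to 0.052 to 0.0674 CPM (here by the library's total, and TMM-scaled for every level below) in the former and to 0.153 to 0.302 CPM in the latter. Clustered histone rows took 0.01225 to 0.06151% of the counts of a library.

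The knocked-down genes were checked first. Cbfa2t3 had 20395 and 24230 counts in Eto2 WT, 9991 and 12307 in KD-sh2 and 6040 and 8391 in KD-sh3, and Kdm1a had 7414 counts in Lsd1 WT and 916 and 747 in Lsd1 KD. Irf2bp2 had 5741 and 5962 counts in WT and 4092 and 4909 in KD-sh1, a log2 fold change of -0.33 (edgeR adjusted p = 0.0027). Gfi1b had 1784 and 1439 counts in WT but 4051 and 900 in KD, so the library labelled Gfi1b KD replicate 1 goes against its label, and Gfi1b was not lower in the KD group as a whole (mean 146 CPM against 134 CPM in WT, log2 0.13, edgeR adjusted p = 0.954). The comparison is named below by its label. The summed level of the T-cell, B-cell, macrophage and fibroblast markers stayed at or under 2.44 CPM per list in every library.

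Each nucleosome wraps DNA around a core of H2A, H2B, H3 and H4, and H1 binds the linker DNA. The clustered genes supply the bulk of this protein during S phase, when NPAT drives their transcription. Their mRNAs are unusual in lacking a poly(A) tail: they end in a conserved stem-loop that is bound by SLBP and cut by a dedicated complex including FLASH (gene Casp8ap2). Erythroid precursors stop dividing and condense their nuclei as they mature. The libraries followed a protocol that selects polyadenylated mRNA, so the counts below describe the RNA that such a selection retains, and total histone mRNA was not measured.

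The end of these mRNAs is shown first, because it may bear on how they were captured, which was not tested. A stem-loop was searched for within 150 bases past the coding end, defined as a 6-base stem starting GG and ending CT, a 4-base loop starting TT or TG and the reverse complement of the stem. The search needs a coding end, which the annotated pseudogene Hist3h2bb-ps lacks. The stem-loop was found in 58 of the 64 genes (90.6%) and in 6 of 22162 other protein-coding genes (0.0271%). The examples below represent the 5 families and the sequence variants, with the stem-loop in capitals, read 5′ to 3′ along the mRNA strand from mm9.
Hist1h1c: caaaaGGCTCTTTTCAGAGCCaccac
Hist1h2ad: acaaaGGCTCTTTTCAGAGCCatcca
Hist2h2ac: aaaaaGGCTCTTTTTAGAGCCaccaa
Hist2h2ab: aaaaaGGCTCTTTTAAGAGCCaccaa
Hist1h2bc: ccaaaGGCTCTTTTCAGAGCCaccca
Hist2h3b: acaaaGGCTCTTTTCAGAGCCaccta
Hist1h4k: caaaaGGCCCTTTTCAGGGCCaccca
Hist1h4j: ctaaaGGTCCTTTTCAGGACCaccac
Hist2h4: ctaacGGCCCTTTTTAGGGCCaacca
The stem-loops lie at chr13:23831381-23831396 (plus strand) for Hist1h1c, chr13:23666764-23666779 (plus) for Hist1h2ad, chr3:96024341-96024356 (minus) for Hist2h2ac, chr3:96024256-96024271 (plus) for Hist2h2ab, chr13:23776516-23776531 (plus) for Hist1h2bc, chr3:96073058-96073073 (plus) for Hist2h3b, chr13:21842019-21842034 (minus) for Hist1h4k, chr13:21827306-21827321 (plus) for Hist1h4j and chr3:96066862-96066877 (minus) for Hist2h4. The form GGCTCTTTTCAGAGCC was found in 36 genes. The forms with a GGCCCT or GGTCCT stem were found in 12 genes, all of them H4 genes. The element began 22 to 59 bases past the stop codon. In 23 genes the annotated exons run on for more than 50 bases past it, by 839 bases in Hist1h1c and 3050 bases in Hist1h1d. The letters searched for were not found in this window of Hist1h2an, Hist2h2bb, Hist2h2be, Hist1h3g and Hist1h4a.

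Part of the H2A and H2B promoters hold another shared element, the octamer ATTTGCAT, a motif bound by OCT factors. It was searched on both strands in the 250 bases before the start site. It was found at 16 of 64 genes (25%), against 361 of 22225 protein-coding genes (1.62%). These were 7 of 16 H2A genes and 9 of 19 H2B genes. These 16 promoters hold 10 distinct octamers, since 6 of them lie between an H2A and an H2B gene that point away from each other. The windows below have the octamer in capitals on the plus strand of mm9.
Hist1h2ac and Hist1h2bc: ggaaacttcATTTGCATaatcccacc
Hist2h2ac and Hist2h2be: tgagacctaATTTGCATaaggcgttc
Hist2h2bb: tgaaacctcATTTGCATacaagctct
Hist1h2ab: caggcctttATGCAAATgaggagctc
They lie at chr13:23775942-23775967, chr3:96024987-96025012, chr3:96073566-96073591 and chr13:23842819-23842844, and in the last the octamer reads on the minus strand.

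In the mm9 annotation 53 genes lie at chr13:21807632-24026720 (Hist1), 7 at chr3:96023839-96082924 (Hist2), 3 at chr11:58762413-58770176 (Hist3) and 1 at chr6:136752589-136752900 (Hist4). Many are near-identical. Across the 64 genes a median of 49.5% of the 36-base words in a gene's exons also occur in another member, with medians of 3.56% in H1, 48.6% in H2A, 52.0% in H2B, 54.8% in H3 and 45.8% in H4. Hist1h2bq and Hist1h2br share 100%, whereas Hist2h2be shares 1.08%, Hist2h2bb 0.833% and Hist1h1c 10.5%. In each Gfi1b library 8 of 11 listed Hist1 H2A rows had a count within 5% of their median, against 5 or 6 of 12 in each shRNA library, and 0 to 5 of 14 Hist1 H2B rows did in any library. Rows of 1 family may hold the same reads, and their number is not a number of independent measurements.

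**Figure D1:**
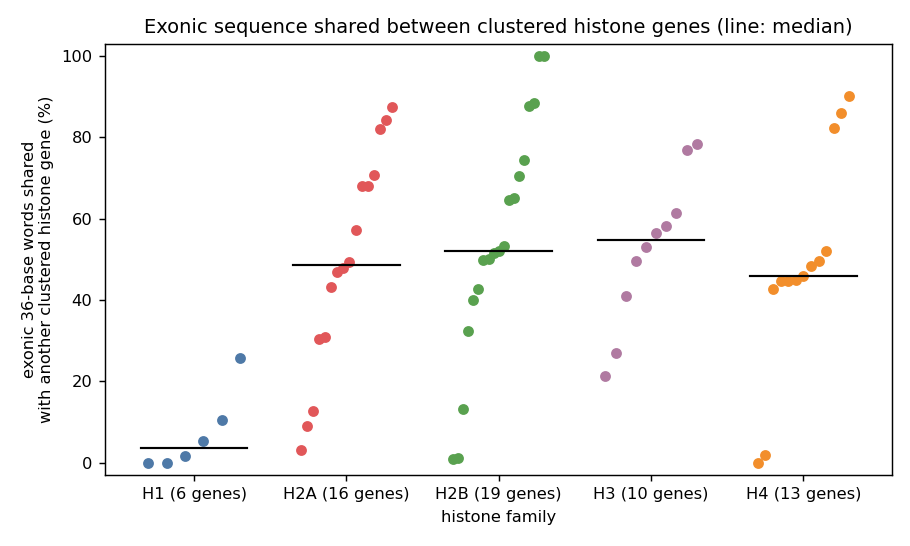
Percentage of the 36-base words in each gene's exons that also occur in another clustered histone gene, by family (1 point per gene, line at the median). H1 genes lie near the bottom, with a median of 3.56%, whereas the median is 48.6% in H2A and 52.0% in H2B.

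Levels per length (RPKM, mean over the 21 libraries) were led by H2A. Hist1h2ak reached 58.5 (range 5.08 to 127), Hist1h2af 48.9, Hist1h2ab 48.1 (15.2 to 88.9) and Hist1h2ad 46.5 (14.7 to 85.7). The highest H2B gene was Hist1h2bc at 16.7 (3.48 to 44.3), and Hist2h2be stood at 8.42 (3.02 to 38.9). Hist1h1c, the leading H1 gene, stood at 8.19 (0.980 to 51.5), Hist1h4j, the highest H4 gene, at 5.16, Hist1h4i at 4.86 and Hist2h3b, the highest H3 gene, at 3.34. These ranges overlap widely between families, and the order is over separately processed tables. In Eto2 WT replicate 1, H2A rows took 70.6% of the clustered histone counts, H2B 18.3%, H4 6.06%, H3 4.04% and H1 0.959%. Low rows were removed before testing, which left 59 rows in each of the Cbfa2t3, Irf2bp2 and Kdm1a KD tables, 41 in Gfi1b and 47 in MEL differentiation. Hist1h1t, a testis-specific H1 gene, and Hist2h2aa2 were among the 4 removed in Cbfa2t3 KD, where the removed rows had 0 to 9 counts, and all 10 H3 rows (0 to 21 counts) were among the 20 removed in Gfi1b KD. The 13 removed in MEL differentiation included 5 H3 rows, Hist1h1a, Hist1h1b and Hist2h4, none with more than 26 counts in a library.

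**Figure D2:**
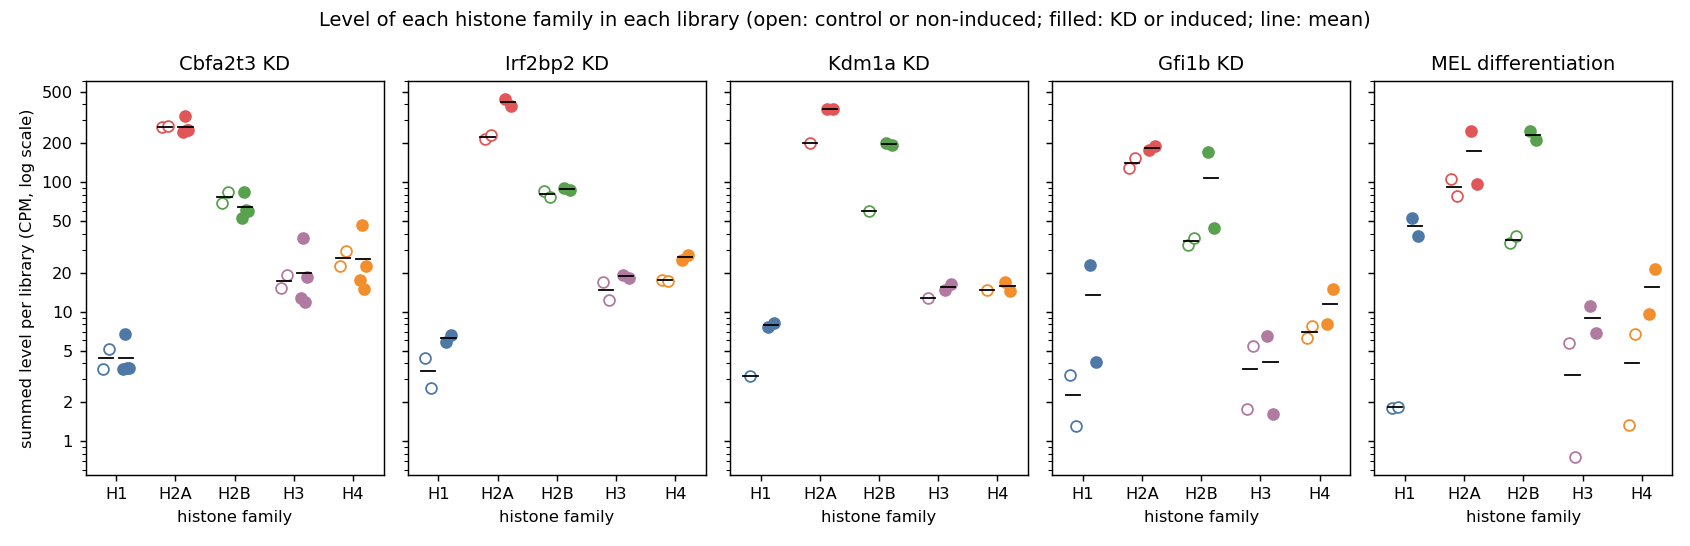
Summed CPM of each histone family in every library (log axis), in 1 panel per comparison, with open points for control or non-induced libraries, filled points for knockdown or induced libraries and a line at each mean. In MEL differentiation H1 goes from 1.79 and 1.85 to 53.2 and 38.6 CPM and H2B from 33.9 and 38.3 to 250 and 211 CPM, and in Irf2bp2 KD H2A goes from 215 and 231 to 439 and 390 CPM.

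Differentiation of MEL cells, in which erythroid markers rose (7 of 9), came with more H1 and H2B RNA retained by the poly(A) selection. By edgeR, 21 of the 47 tested rows were called higher and 0 lower (Benjamini-Hochberg adjusted p of at most 0.05 and log2 change of at least 0.5), against 27.2% of all 11713 genes called in either direction and 12.4% called higher. The median log2 fold change was 2.26 over the tested rows, some of which passed the filter through the induced libraries, and -0.020 over all genes. A change in the number of cells making an RNA and a change in the RNA per cell cannot be told apart in these bulk libraries.

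The 3 H1 rows tested were called higher, of which 2 had under 10 counts in both non-induced libraries and so met the low-count filter through the induced ones. Hist1h1c had 24 and 14 counts in non-induced libraries and 535 and 399 in induced libraries. The groups were far apart, and the log2 fold change was 4.77 (SE 0.39, adjusted p = 4.39e-06), a 27.3-fold rise. Hist1h1e moved from 6 and 3 to 111 and 62 counts (log2 4.39, SE 0.68, adjusted p = 0.000601). Hist1h1d moved from 2 and 3 to 111 and 80, where the non-induced libraries are at or under 3 counts. Its ratio of summed counts after scaling for library size, 42.8 (95% exact interval 18.0 to 133, counting error only), is therefore given in place of its fitted fold change, which depends on the prior count.

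H2B rose in 16 of 17 tested rows, with a median log2 fold change of 2.87 (range 0.68 to 3.17). Hist1h2bc, the most abundant H2B row per length, moved from 85 and 63 to 423 and 469 counts (log2 2.72, SE 0.34, adjusted p = 0.000126). Hist2h2be, which shares hardly any sequence with the others, moved from 258 and 170 to 1458 and 616 (log2 2.41, SE 0.36, adjusted p = 0.000437). In both genes each induced library lay above each non-induced one. The combined row Hist1h2bq+Hist1h2br had the highest fitted H2B change, from 31 and 25 to 204 and 260 counts (log2 3.17, SE 0.43, adjusted p = 0.000229). Hist2h2bb moved from 10 and 1 to 35 and 37 counts (log2 2.94, adjusted p = 0.0162), a change that ran from 2.32 to 4.75 with 1 library left out and was no longer called without non-induced replicate 1 (4.75) or replicate 2 (2.32), and this row too met the low-count filter through the induced libraries. The row not called was Hist3h2ba, with 11 and 4 counts against 10 and 11.

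H2A was called in 2 of 14 rows, both from the Hist2 locus. Hist2h2ab moved from 35 and 9 to 123 and 62 counts (log2 2.32, SE 0.59, adjusted p = 0.0114) and Hist2h2ac from 73 and 21 to 191 and 101 (log2 1.89, adjusted p = 0.0134). By contrast, Hist1h2ad had 210 and 95 counts before and 334 and 118 after induction, with overlapping groups and an adjusted p of 0.212. Without induced replicate 1 its log2 change turned from 0.77 to -0.15 and that of Hist1h2ab to -0.093. None of 5 H3 rows passed: Hist2h3b had 9 and 1 against 21 and 12 counts. None of 8 H4 rows passed either. Their median log2 fold change was 2.20, but 7 of them had under 10 counts in both non-induced libraries and met the low-count filter through the induced ones, which favours positive values, and the lowest adjusted p was 0.0589 for Hist1h4n, whose counts were 4 and 6 against 15 and 32. The difference between families was not tested, and the simulated test of this comparison recovered 57 of 200 genes given a log2 change of 1.

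The 21 calls became 17 to 32 when 1 library was left out, the 32 without induced replicate 2. Among RNAs that lack a poly(A) tail, Rn45s, the ribosomal RNA precursor, had 1572 and 936 CPM in the non-induced and 2845 and 11360 CPM in the induced libraries, the highest being induced replicate 2, and its part in the result was not tested. The others on that list (small nucleolar RNAs, Rmrp, Terc and the like) summed to 40.1 and 49.3 CPM against 40.9 and 39.0 CPM. Genes of DNA synthesis fell in 9 of 20 and rose in 0. Among 18 tested histone chaperone and assembly genes 3 rose and 6 fell, and among 17 genes of histone mRNA synthesis and processing 1 rose and 5 fell. Casp8ap2 fell from 2585 and 1727 to 1115 and 1173 counts (log2 -0.77, adjusted p = 0.026), a call lost whichever library was left out (-0.87 to -0.69), while Slbp and Npat were not called. Of 11 replacement histone genes, which are mostly polyadenylated and made outside S phase too, 5 rose and 1 fell. H1f0, encoding the linker histone of non-dividing cells, rose from 2456 and 1873 to 18336 and 15011 counts (log2 3.06, adjusted p = 5.73e-06).

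With IRF2BP2 depleted, all tested H2A rows and part of the H4 and H1 rows were called higher, and no H2B or H3 row was called. Several of the H4 and H1 calls were lost under DESeq2, as given below. By edgeR, 25 of 59 tested rows were called higher and 0 lower, against 22.5% of 12329 genes called in either direction and 10.1% called higher. The median log2 fold change was 0.46 over the tested rows and -0.0063 over all genes. Called rows were 14 of 14 in H2A, 8 of 12 in H4 and 3 of 5 in H1, and 0 of 18 in H2B and 0 of 10 in H3. The family median was 0.59 in H4, just over the fold limit of 0.5, and 0.35 in H3, under it.

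The H2A rows rose together by a median log2 fold change of 0.92 (range 0.80 to 1.13, adjusted p from 1.08e-06 to 0.0013). Hist1h2ad had 1170 and 1255 counts in WT and 2066 and 2147 in KD-sh1 (log2 0.85, SE 0.094, adjusted p = 1.42e-06). In the Hist2 locus, Hist2h2ac moved from 264 and 290 to 558 and 610 (log2 1.13, SE 0.13, adjusted p = 2.05e-06) and Hist2h2ab from 142 and 155 to 312 and 315 (log2 1.13, SE 0.16, adjusted p = 2.52e-05). Hist3h2a, the H2A gene of the Hist3 locus, moved from 177 and 225 to 365 and 406 counts (log2 0.99, adjusted p = 5.68e-05). No WT library overlapped a KD library in these 4 genes. The H2A sum was 215 and 231 CPM in WT and 439 and 390 CPM in KD-sh1.

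H1 and H4 rows had fewer counts. Hist1h1c moved from 99 and 63 to 160 and 190 (log2 1.16, SE 0.22, adjusted p = 0.000379). Hist1h1d moved from 34 and 22 to 42 and 71 (log2 1.05, SE 0.32, adjusted p = 0.013) and Hist1h1e from 32 and 22 to 42 and 50 (log2 0.81, SE 0.32, adjusted p = 0.0437). Hist1h4k moved from 88 and 83 to 128 and 152 (log2 0.76, SE 0.20, adjusted p = 0.005). Hist2h4 had the highest fitted change, from 6 and 7 to 15 and 26 counts (log2 1.68, SE 0.51, adjusted p = 0.013), a row under 10 counts in both WT libraries that met the low-count filter through the KD-sh1 libraries. Hist4h4, the sole gene of the Hist4 locus, had 4 and 18 against 19 and 29 counts and an adjusted p of 0.0761.

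No H2B or H3 row was called, although 15 of 18 and 10 of 10 were positive. The family sums did not overlap, at 85.8 and 76.4 CPM in WT against 90.2 and 86.7 CPM in KD-sh1 for H2B and 16.9 and 12.4 against 19.3 and 18.1 CPM for H3. H2B log2 fold changes ran from -0.34 to 0.40 with a median of 0.28, and Hist1h2bc had 474 and 417 counts in WT and 463 and 490 in KD-sh1. Hist2h2be was lower, at 1073 and 1136 against 732 and 959 counts (log2 -0.34, adjusted p = 0.0104), which stays under the fold limit. H3 log2 fold changes ran from 0.26 to 0.52, with a lowest adjusted p of 0.0855. Hist2h3b had 122 and 78 counts in WT and 101 and 134 in KD-sh1, and its groups overlapped. The difference between families was not itself tested.

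The 25 calls became 16 under DESeq2, where Hist2h4, Hist1h1d, Hist1h1e and Hist1h4n were among those lost, and 16 without KD-sh1 replicate 2, where Hist2h4 (log2 1.35), Hist1h1d (0.75), Hist1h1e (0.80) and Hist1h4n (0.50) were no longer called. Hist1h1e and Hist1h1d also lost their calls without WT replicate 2 (0.57 and 0.77), Hist2h4 without WT replicate 1 (1.58), Hist1h1e without KD-sh1 replicate 1 (0.83) and Hist1h4n without any 1 library (0.50 to 0.58). Rn45s had 3111 and 1461 CPM in WT and 1232 and 4466 CPM in KD-sh1, and the other RNAs lacking a poly(A) tail summed to 42.2 and 37.5 against 51.8 and 40.8 CPM, in overlapping groups. Erythroid markers rose in 9 of 9. Among replacement histones 4 of 11 rose, led by H2afx, the DNA-damage variant, with 3275 and 3600 counts against 6687 and 8170 (log2 1.16, adjusted p = 1.01e-08). Of 20 DNA synthesis genes 2 rose and 2 fell, of 17 histone mRNA processing genes 1 rose and 2 fell, and of 18 chaperone genes 1 rose and 1 fell.

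**Figure D3:**
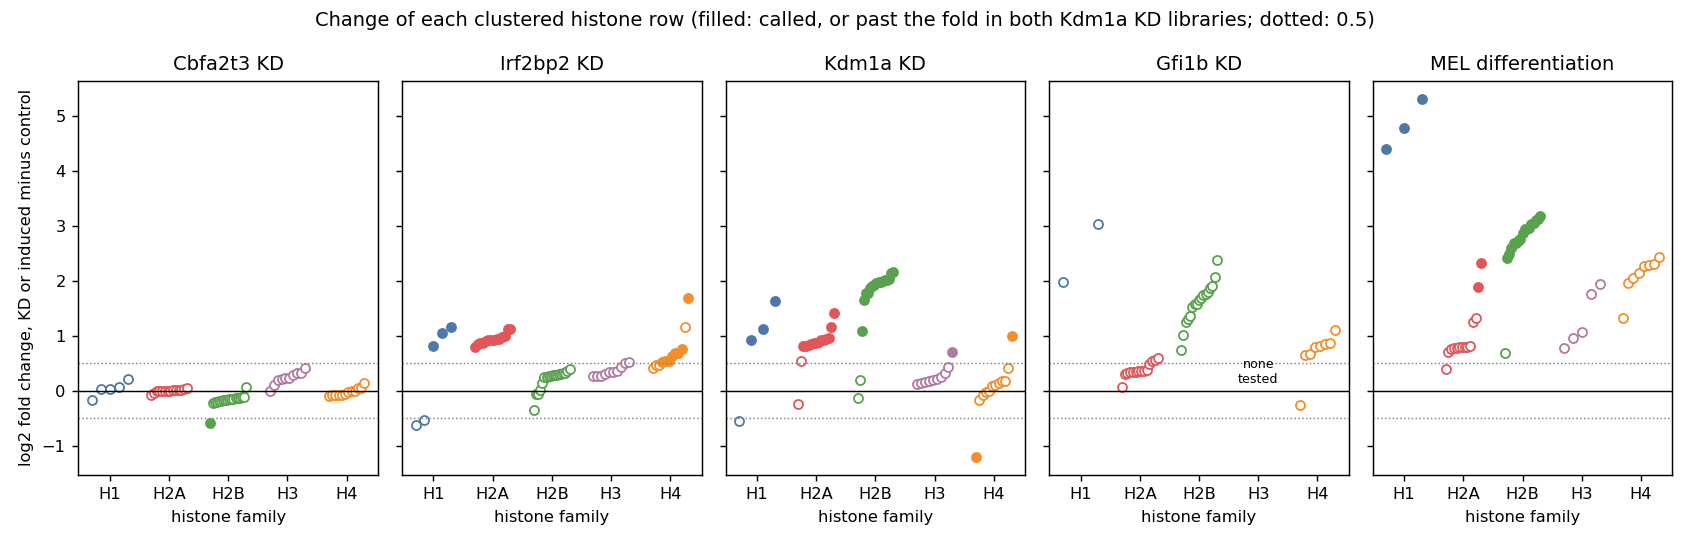
Log2 fold change of each tested row by histone family in the 5 comparisons (1 point per row). Filled points were called by edgeR or, for Kdm1a KD, lay past the fold limit in both knockdown libraries, and dotted lines mark 0.5 up or down. Filled points are 14 of 14 for H2A in Irf2bp2 KD, 16 of 18 for H2B in Kdm1a KD, and 3 of 3 for H1 and 16 of 17 for H2B in MEL differentiation, where 2 of the H1 rows had under 10 counts in both non-induced libraries.

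Depletion of LSD1, the lysine demethylase KDM1A, came with more H2B and H2A RNA retained by the poly(A) selection. With 1 control library the spread between controls is not known and no test was run, so a row was counted when each KD library lay at least 0.5 log2 units from WT, both on the same side. This held for 35 of 59 rows, 34 higher and 1 lower, against 22.9% of 12628 genes in either direction, 13.1% higher and 9.8% lower. The median log2 difference was 0.84 over these 59 rows and 0.0014 over all genes.

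H2B led, with 16 of 18 rows higher and a median log2 difference of 1.94. Hist1h2be had 153 counts in WT and 753 and 658 in KD (log2 2.16), Hist1h2bc 335 against 1663 and 1387 (log2 2.15) and Hist1h2bl 158 against 751 and 587 (log2 2.03). The 2 exceptions were the Hist2 genes with little shared sequence: Hist2h2be had 650 counts against 808 and 712, and Hist2h2bb 52 against 51 and 45. In the Hist3 locus, Hist3h2ba had 26 against 65 and 52 counts (log2 1.08). The H2B sum was 60.3 CPM in WT and 201 and 194 in KD.

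H2A was higher in 13 of 15 rows with a median of 0.87, and Hist1h2ad had 1079 counts against 2094 and 1777 (log2 0.81). The highest H2A difference was that of Hist3h2a, 175 against 497 and 460 counts (log2 1.41). H1 was higher in 3 of 4 rows: Hist1h1c had 82 against 282 and 245 counts (log2 1.63), Hist1h1d 29 against 58 and 58 (0.93) and Hist1h1e 24 against 59 and 52 (1.12). H3 counted 1 of 10 rows, Hist2h3b with 66 against 117 and 104 (log2 0.70), and a family median of 0.20. H4 counted 1 row higher, Hist4h4 with 13 against 31 and 26 (log2 1.00), and 1 lower of 12. The lower row was Hist2h4, named after its values were seen, with 20 against 14 and 4 counts. Of 11 replacement histone genes 2 were past the limit higher and 3 lower. Those higher were H1f0, with 4695 against 7545 and 6840 counts (log2 0.59), and H2afx, with 2854 against 8212 and 7109 (log2 1.39). Casp8ap2 had 6856 against 5220 and 4414 (log2 -0.54). Markers of other cell types lay past the limit higher in low rows, and their part in the result was not tested: Cd3d had 6 against 34 and 46 counts and Cd3g 8 against 50 and 55 (T cells, 0.286 summed CPM against 1.57 and 2.21 over 3 listed genes), Cd79a 8 against 34 and 25 (B cells) and Col1a1 21 against 58 and 38 (fibroblasts). Erythroid markers were past the limit lower in 3 of 9 and higher in 0, and DNA synthesis genes lower in 3 of 20. Rn45s had 2058 CPM in WT and 1238 and 1025 CPM in KD, whereas the other RNAs lacking a poly(A) tail summed to 56.0 CPM against 65.9 and 64.3 CPM.

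**Figure D4:**
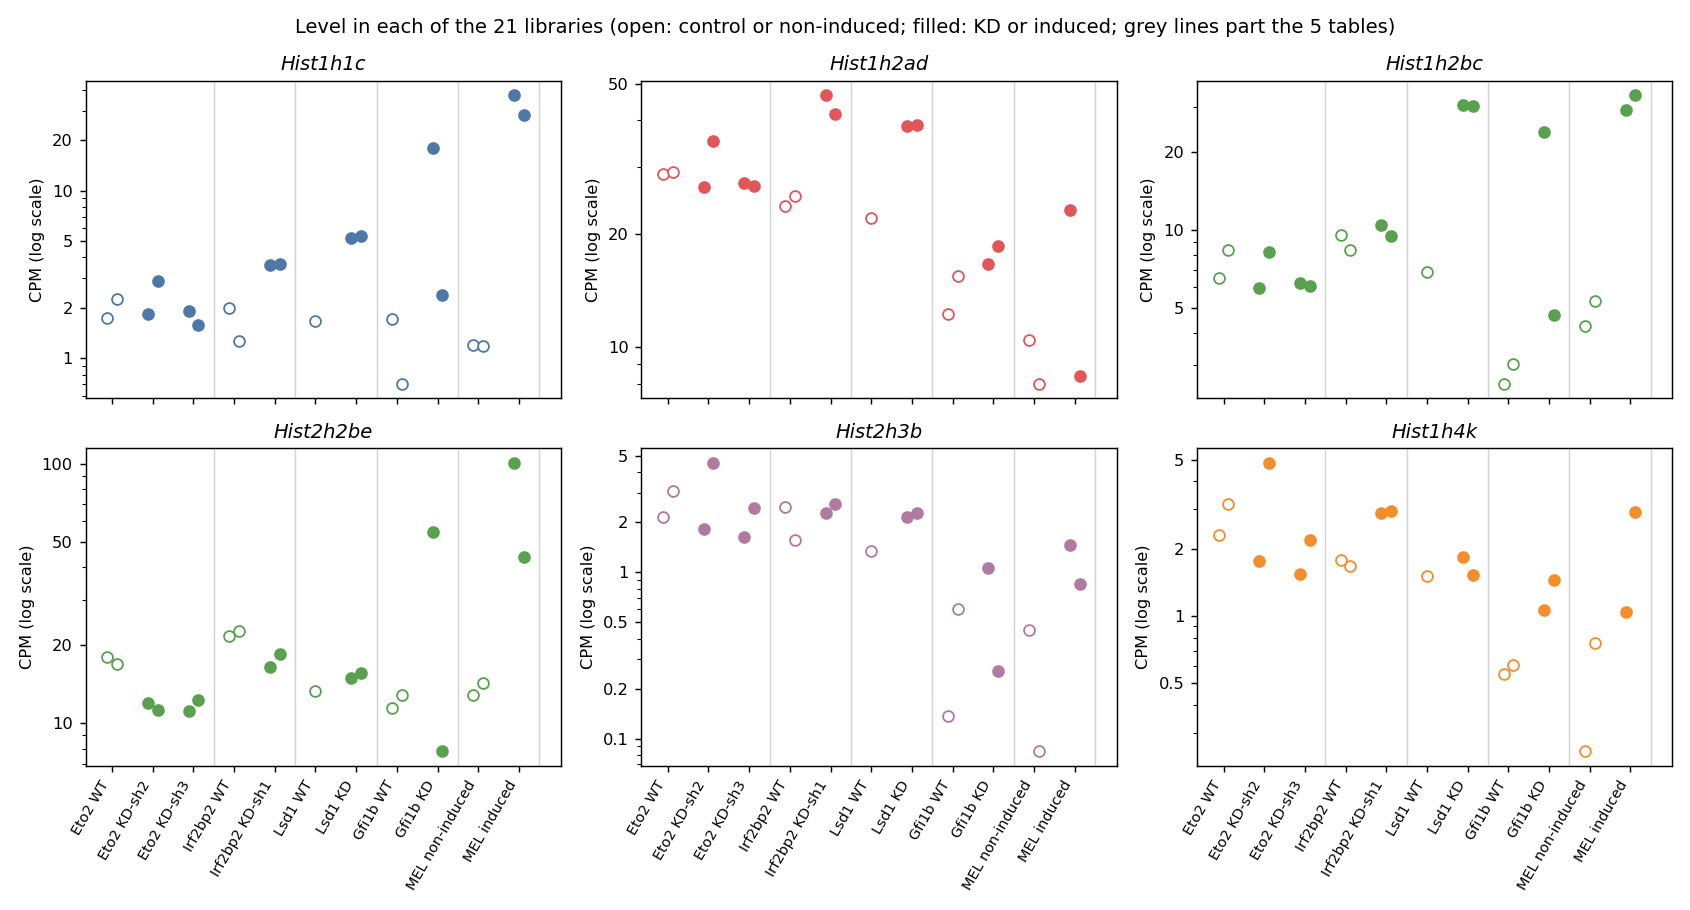
CPM (log axis) of Hist1h1c, Hist1h2ad, Hist1h2bc, Hist2h2be, Hist2h3b and Hist1h4k in the 21 libraries, open points for control or non-induced libraries and filled points for knockdown or induced libraries. Hist1h1c and Hist1h2bc separate the groups in Kdm1a KD and MEL differentiation, whereas in Gfi1b KD the 2 filled points of Hist2h2be lie far apart (1023 and 92 counts).

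The rows called higher, or past the fold limit in Kdm1a KD, were set side by side across Irf2bp2 KD, Kdm1a KD and MEL differentiation, whose controls are separate libraries. There were 5 rows higher in all 3: Hist1h1c, Hist1h1d, Hist1h1e, Hist2h2ab and Hist2h2ac. Irf2bp2 KD and Kdm1a KD shared 16 rows, which is 64% of the 25 and 47.1% of the 34, and 11 of the rows higher in these 2 but not in differentiation were H2A. Kdm1a KD and differentiation shared 19 rows, 55.9% of the 34 and 90.5% of the 21, and 14 of the rows higher in these 2 but not in Irf2bp2 KD were H2B. Irf2bp2 KD and differentiation shared 5, 20% of the 25 and 23.8% of the 21. Over all genes tested in both, the shared part was 12.7 and 10.7% of the genes higher in Irf2bp2 KD and in Kdm1a KD, 12.8 and 12.1% for Kdm1a KD and differentiation, and 36.3 and 30.6% for Irf2bp2 KD and differentiation. Copies with shared sequence may hold the same reads, so rows of 1 family are not independent in these counts. Rows whose annotated exons run over 50 bases past the stem-loop were also set beside all other tested rows. In Irf2bp2 KD 8 of 20 and 17 of 39 were called higher, and in differentiation 8 of 16 and 13 of 31. In Kdm1a KD 13 of 20 and 21 of 39 were higher. The octamer occurs in H2A and H2B promoters, so rows with and without it are given within each family, in that order: in Irf2bp2 KD 7 of 7 and 7 of 7 H2A rows and 0 of 9 and 0 of 9 H2B rows were called, in differentiation 1 of 7 and 1 of 7 H2A rows and 8 of 8 and 8 of 9 H2B rows, and in Kdm1a KD 6 of 7 and 7 of 8 H2A rows and 7 of 9 and 9 of 9 H2B rows were higher.

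The Gfi1b KD comparison gave no called row: 0 of 41 by edgeR, against 0% of 11190 genes, with 8 rows and 784 genes at an unadjusted p under 0.05, and 0 rows by DESeq2. The simulated test of this comparison recovered 19 of 200 genes given a log2 change of 1. It also made 7 false calls, a larger part of its calls than the adjusted p limit of 0.05. The median log2 fold change was 0.85 over the tested rows and 0.021 over all genes, and 40 of 41 were positive, of which some, such as Hist1h1d with 7 and 3 counts in WT against 40 and 12, met the low-count filter through the KD libraries. The 2 KD libraries were far apart in H1 (22.9 and 4.08 summed CPM) and H2B (172 and 44.3). Hist1h2bc had 37 and 30 counts in WT and 452 and 55 in KD, Hist1h1c 25 and 7 against 336 and 28, and Hist2h2be 168 and 128 against 1023 and 92. In each gene the replicate 1 library stood far above the other 3, and for Hist2h2be the other KD library lay below both WT libraries. The same library had 17333 counts of Alas2, the first enzyme of erythroid haem synthesis, where the others had 122, 130 and 240. H2A differed less between the 2 KD libraries, Hist1h2ad having 179 and 153 against 312 and 219. Without KD replicate 1, the median was 0.65, 40 of 43 tested rows were positive, 0 had an unadjusted p under 0.05, 0 rows were called, against 3.48% of all genes (2.25% higher and 1.23% lower), and Hist2h2be turned to -0.64 on the log2 scale. Without KD replicate 2, 14 rows were called higher, against 26.7% of all genes called and 14.6% higher.

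With ETO2 depleted, few clustered histone genes differed past the limits. By edgeR, 1 of 59 tested rows was called, against 5.74% of 12537 genes in either direction (2.99% higher and 2.75% lower), and 1 row had an unadjusted p under 0.05. The median log2 fold change was -0.0055 over the tested rows and 0.0022 over all genes. The former ran from -0.29 to 0.13 with 1 library left out. The called row was Hist2h2be, with 918 and 957 counts in WT, 594 and 570 in KD-sh2 and 546 and 710 in KD-sh3. All 4 KD libraries lay below both WT libraries, and the log2 fold change was -0.58 (SE 0.084, adjusted p = 0.00316). Without Eto2 WT replicate 1, 0 rows were called and the log2 fold change of Hist2h2be was -0.53, and it ran from -0.63 to -0.53 with each library left out. Family medians were 0.031 in H1, 0.0041 in H2A, -0.16 in H2B, 0.24 in H3 and -0.041 in H4, with 1 of 18 H2B rows and 9 of 10 H3 rows positive. Hist1h1c had 89 and 129 counts in WT, 91 and 146 in KD-sh2 and 94 and 91 in KD-sh3, in overlapping groups.

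KD-sh2 replicate 2 stood apart from the other KD libraries. Its H3 sum was 36.8 CPM against 18.6 or less in the other 3 KD libraries and 15.1 and 19.2 in WT, and its H4 sum was 46.9 CPM against 22.6 or less there and 22.7 and 29.6 in WT. Rn45s had 9911 CPM there and 1198 to 5405 CPM in the other 5 libraries, and its part in the result was not tested, while the other RNAs lacking a poly(A) tail summed to 61.9 CPM there and to 52.3 to 59.5 CPM elsewhere. In each of the 3 Eto2 groups replicate 2 exceeded replicate 1 in Rn45s and in the H3 and H4 sums. Between the 2 hairpins, 0 of 59 rows differed by edgeR against 3.71% of all genes (1.92% higher in sh3), 5 having an unadjusted p under 0.05, with a median log2 difference of -0.32 for sh3 relative to sh2. Without KD-sh2 replicate 1, 28 rows were lower in sh3, against 4.57% of all genes called (2.21% higher and 2.35% lower), in a comparison of a sh2 replicate 2 library with both sh3 replicates. Erythroid markers rose in 6 of 9 and DNA synthesis genes in 1 of 20 with ETO2 depletion, and none of the tested replacement histone, chaperone and histone mRNA processing genes was called.

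The binding list placed IRF2BP2 at most of these genes. Its sites carry 3 class codes with 1760, 2730 and 8739 members. These were taken as sites of ETO2-only, of both proteins and of IRF2BP2-only. The text of the study gives the sizes 1760 and 2730 for the first 2 classes, and the third was assigned by elimination. A site of the IRF2BP2-only class lay within 5 kb of the start of 54 of the 64 genes (84.4%), against 15.6% of 22238 protein-coding genes. ETO2-only sites lay near 2 genes and shared sites near 0, against 1.45% and 2.48% of protein-coding genes. The 54 genes share 38 listed sites, of which 28 lie near 2 or more genes, so the genes are not independent in this count. Some of the listed sites abut end to end, so they are not all separate regions. All 6 H1 genes and all 10 H3 genes had such a site, as did 13 of 16 H2A, 15 of 19 H2B and 10 of 13 H4 genes. Within 1 kb the count was 32 genes (50%, against 10.6% of protein-coding genes), and 21 genes (32.8%, against 7.85%) had a site at or above the median enrichment of the class.

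The sites near histone genes had a lower median enrichment than their class. Their fold enrichment over IgG ran from 2.62 to 20, with a median of 4.51 against 6.43 over all 8739 sites. The strongest, chr13:22132941-22133742, reached 20-fold and lay near Hist1h2ag, Hist1h2bj and Hist1h4i, and the next, chr13:23791598-23792097, reached 18-fold near Hist1h1t and Hist1h4c. Hist1h1c (chr13:23830676-23832235) had abutting sites of 4.38-fold and 3.42-fold, with centres 74 bases before and 865 bases past its start. The median distance to the nearest site was 767 bases. Of the rows called higher in Irf2bp2 KD 21 of 25 (84%) had such a site, and of those not called 31 of 34 (91.2%). Of the 7 tested rows without a site, 4 were called.

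**Figure D5:**
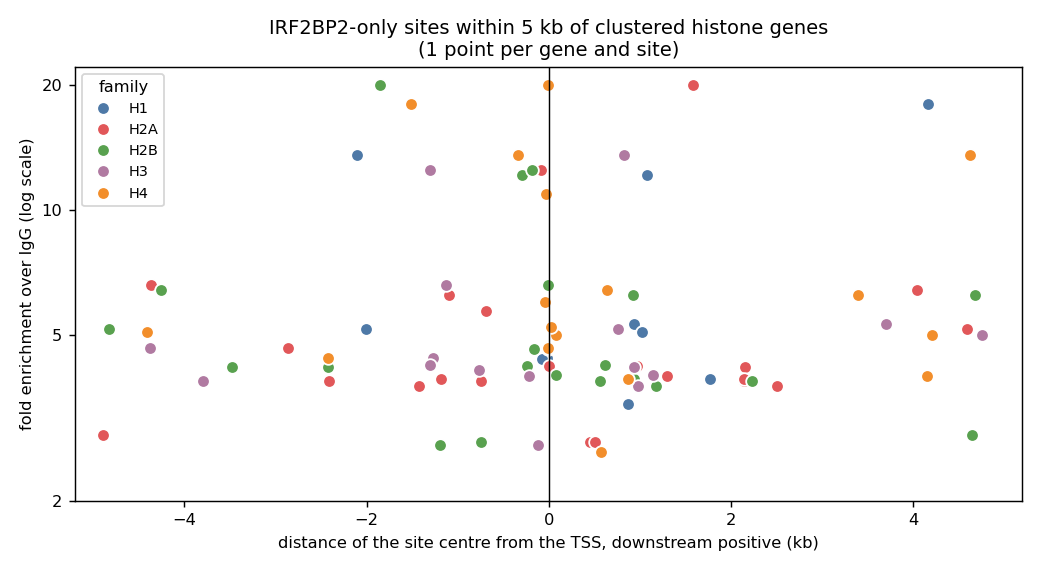
Fold enrichment over IgG of IRF2BP2-only sites against the distance of their centre from the start of each clustered histone gene within 5 kb (1 point per gene and site, negative values upstream). The points run from 2.62-fold to 20-fold, and the median distance to the nearest site is 767 bases.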

How the data were processed

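RNA-Seq was analysed in 21 libraries and binding in 1 list. Per the study's methods, the authors aligned reads to mm9 with TopHat2 and counted per RefSeq gene; the deposited tables hold these raw counts and RPKM values, with columns of the authors' DESeq2 comparisons that were not used. In the deposited binding list, aligned with Bowtie to mm9, the fold enrichment over IgG is a ratio made by the authors. 4 of its columns with read numbers were not used. How reads that match several copies were counted is not given in the sources used here.

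Counts were tested in each table over all genes with edgeR 4.0.16 (R 4.3.3; TMM, filterByExpr, quasi-likelihood, Benjamini-Hochberg), calling an adjusted p of at most 0.05 with an absolute log2 fold change of at least 0.5. Kdm1a KD, with 1 control, used TMM-scaled log2 CPM with a prior count of 2 and no test. DESeq2 1.42.0, its size factors, other filters, a replicate block, no fold limit and leaving out each library were alternatives, and sh3 against sh2 with libraries left out was chosen after seeing the data. The tests were checked on simulated counts with 200 genes given a log2 change of 1. In Cbfa2t3 KD 166 were recovered beside 11 false calls, and in Irf2bp2 KD 169 beside 7. The genes named were the 3 most abundant per family, up to 10 called rows with non-overlapping groups and the largest changes per comparison (for Kdm1a KD the 5 largest in each direction with at least 10 counts in every library), all Hist3 and Hist4 rows, and H1f0, H2afx, H3f3b, Slbp, Casp8ap2 and Npat. Values of other members are given as ranges or as levels without a test. The members and gene lists were chosen with earlier results of these data known. Sequences and positions came from mm9 with its GENCODE annotation. Python 3.11.15, pandas 2.3.3, numpy 2.4.6 and matplotlib 3.10.9 were used. Ranges of the library totals are in the report, and intervals cover counting error only.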

Additional observations from a re-analysis of the deposited data

How the results depend on the processing

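The number of clustered histone rows called changed by over 1.5 times under few settings. In Irf2bp2 KD it was 25, and 16 with DESeq2, and ran from 16 to 21 with 1 library left out. In Cbfa2t3 KD it was 1, and 2 with sh3 alone, and ran from 0 to 1. In Gfi1b KD it was 0, and 3 with no filter on low counts, and ran from 0 to 14. In MEL differentiation it ran from 17 to 32, in Kdm1a KD from 36 to 38, and for sh3 against sh2 from 0 to 28. Where leaving out a library left 1 in a group, that library was assumed to vary like the others. Kdm1a KD had no test, and with 1 KD library left out a row had to pass the fold limit in 1 library instead of both. This looser rule favours a higher count, and the only control could not be left out. The range for Kdm1a KD is therefore no measure of stability. Within 1 kb 32 genes had an IRF2BP2-only site, and 21 at or above the median enrichment. Some log2 changes turned sign with 1 library left out: in Gfi1b KD, H1f0 ran from -0.17 to 2.33, Hist2h2be from -0.64 to 2.14 and Hist3h2ba from -1.03 to 2.98, and in MEL differentiation Hist1h2ab from -0.093 to 1.35, Hist1h2ad from -0.15 to 1.33 and Hist1h3d from -0.45 to 3.16. The cause was not tested.

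Replicate numbers are labels shared between groups, with no stated pairing. Deviations of same-numbered libraries correlated by 0.118 to 0.252 in the Eto2 libraries, 0.025 in Irf2bp2, 0.0015 in Gfi1b and 0.196 in MEL differentiation. With the replicate number as a block 1, 26, 0 and 22 rows were called in these comparisons. In the shallower Gfi1b and differentiation tables many H3 rows were too low to test, and the summed H3 level was also lower there, at 1.78 and 5.44 CPM in Gfi1b WT against 12.4 to 19.2 CPM in the shRNA controls.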
